A study of Homo sapiens with 6 samples.

Results

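Ribosome footprint counts were examined for 10 genes of the mitochondrial genome that encode subunits of the respiratory chain and ATP synthase. They were chosen by Ensembl gene ID, cut before the version number, and all 10 IDs were found among the 62492 features of the count table. From complex I these were MT-ND1 (ENSG00000198888), MT-ND2 (ENSG00000198763), MT-ND3 (ENSG00000198840), MT-ND4 (ENSG00000198886) and MT-ND5 (ENSG00000198786), and from complex III MT-CYB (ENSG00000198727). From complex IV these were MT-CO1 (ENSG00000198804), MT-CO2 (ENSG00000198712) and MT-CO3 (ENSG00000198938), and from complex V MT-ATP6 (ENSG00000198899). The libraries came from WPMY-1, a line of immortal myofibroblasts derived from human prostate stroma. Control libraries carried a hairpin named shcontrol and are labelled TRMT61A wildtype, and knockdown libraries carried a hairpin named sh61A and are labelled TRMT61A knockdown. Each group had 3 libraries. The labels do not say whether these were separate cultures or clones, so p-values measure the spread between libraries, which may be technical.

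The mitochondrial genome is transcribed from both strands into long precursors that are cut into tRNAs, rRNAs and mRNAs. Its mRNAs are translated inside the organelle by mitochondrial ribosomes, which use mitochondrially encoded tRNAs and are distinct from cytosolic ribosomes. The proteins are hydrophobic core subunits that are inserted into the inner membrane and joined there by subunits encoded in the nucleus. TRMT61A, with its partner TRMT6, places 1-methyladenosine in cytosolic tRNAs, whereas other enzymes, among them TRMT61B and TRMT10C, place this mark in mitochondrial tRNAs. The mRNA of MT-ND5 has been reported to carry 1-methyladenosine as well.

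Ribosome profiling counts short RNA fragments shielded from nuclease. Here lysate was treated with RNase I and monosomes were collected from a sucrose gradient, per the labels' protocols. Whether the mitochondrial fragments in these libraries come from mitochondrial ribosomes was not tested. A count combines the amount of an mRNA with its occupancy, and fewer mitochondrial mRNAs and fewer ribosomes on each of them cannot be told apart from footprints alone. Library totals ran from 6771455 to 8008896 counts in the control group and between 12704354 and 17752247 in the knockdown group. The level of TRMT61A itself and markers of stromal and other cells were not analysed here, because the table pairs no ID with a gene name.

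The 10 genes together had fewer footprint counts in knockdown, although those libraries were deeper. Control libraries 1 to 3 held 115462, 86730 and 83852 counts on them, and knockdown libraries 1 to 3 held 48489, 70099 and 52495. As a share of all counts this was 1.44%, 1.28% and 1.14% in control, a mean of 1.29% ± 0.15 (SD, n = 3). In knockdown it was 0.273%, 0.528% and 0.413%, a mean of 0.405% ± 0.127 (SD, n = 3). The groups did not overlap, and the control mean was 3.18 times the knockdown mean. Wilson 95% intervals of these shares were at most 0.0169 percentage points wide. They cover counting error only, so the spread between libraries was far larger than counting error. Footprints on the 50 most abundant other features took 64.1% ± 5.1 of control counts and 71.5% ± 1.7 of knockdown counts (SD, n = 3 each), with overlapping groups. Outside those features the 10 genes took 3.68% ± 0.99 of control counts and 1.41% ± 0.43 of knockdown counts (SD, n = 3 each), still without overlap. There the control mean was 2.60 times the knockdown mean, a smaller ratio than over all counts.

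Levels are given as CPM, the counts scaled to a common library total, after scaling by the trimmed mean of M-values (TMM), which sets libraries on a common scale by the bulk of features. Knockdown was compared with control by edgeR's quasi-likelihood test over 11653 features, with Benjamini-Hochberg adjustment over all of them and a threshold of 0.05. All 10 genes were tested, with at least 480 counts in every library. The log2 fold change was below 0 in 10 of 10 genes, as it was in 50.3% of all features, and its median was -1.45 against -0.0047 over all features. Of the 10 genes, 6 fell past the threshold (2 of 5 in complex I, 1 of 1 in complex III, 3 of 3 in complex IV and 0 of 1 in complex V). Over all features 1.64% were called lower. None of the 10 was called higher by edgeR, by DESeq2 or at an unadjusted p under 0.05, against 1.48% of all features in edgeR, and 3.12% were called in either direction. Calls were more common among abundant features: of the 629 features at least as abundant as the least abundant of the 10 genes, 5.41% were called lower and the median log2 fold change was -0.01. An unadjusted p under 0.05 with a lower level was reached by 10 of 10 genes and by 8.38% of all features. In TMM-scaled CPM, all knockdown libraries lay below all control libraries in 9 of 10 genes. The same held for 12.7% of all features and for 20% of those 629.

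**Figure D1:**
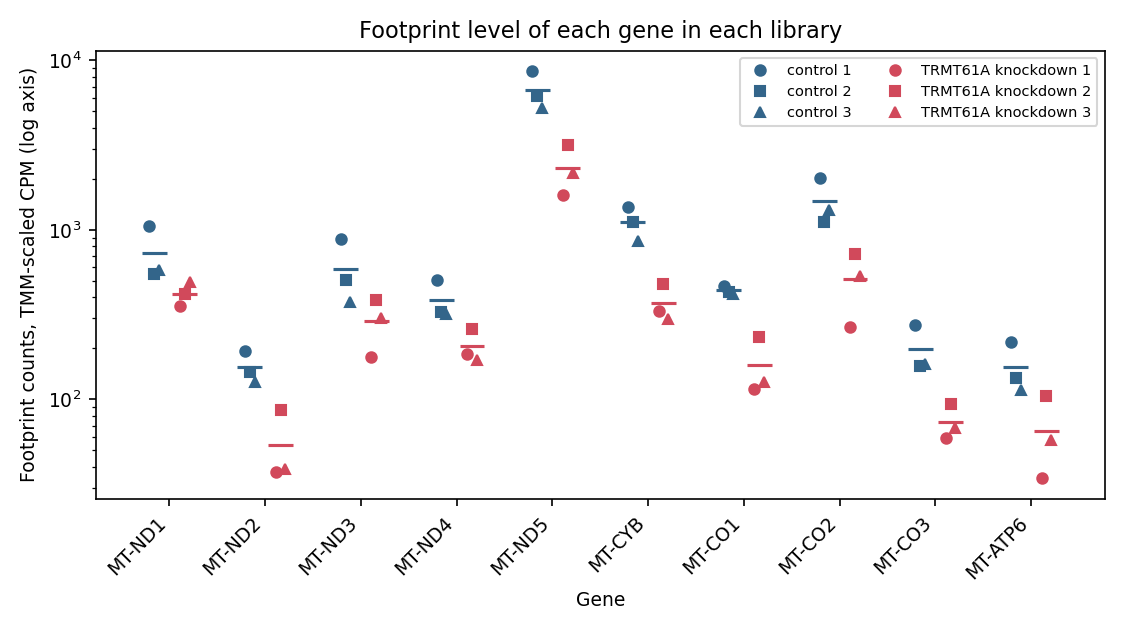
Footprint level of each of the 10 genes (horizontal axis) in TMM-scaled CPM on a log axis, with 1 point per library and bars at group means (n = 3 each). Control points (blue) lie above knockdown points (red) in every gene but MT-ND3, where control library 3 (374 CPM) falls below knockdown library 2 (387 CPM).

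Complex I passes electrons from NADH to ubiquinone and pumps protons, and its mitochondrially encoded subunits form most of the proton-pumping membrane arm. MT-ND5, the largest subunit of that arm and the one at its far end, stood at 8641, 6132 and 5225 CPM in control libraries 1 to 3. In knockdown libraries 1 to 3 it stood at 1615, 3146 and 2154 CPM. Every knockdown library was below every control library. MT-ND5 fell by 1.53 ± 0.31 on the log2 scale (SE; adjusted p = 0.0214, edgeR), and its control mean was 2.89 times its knockdown mean.

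MT-ND2, an antiporter-like subunit of the same arm, had 192, 145 and 126 CPM in control and 37.3, 85.9 and 38.8 CPM in knockdown. Knockdown library 2 stood well above the other knockdown libraries, yet below all controls. MT-ND2 fell by 1.52 ± 0.33 on the log2 scale (SE; adjusted p = 0.0332, edgeR).

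The other 3 complex I genes did not pass the threshold. MT-ND1, which lies at the junction of the membrane arm and the peripheral arm near the ubiquinone site, had 1053, 552 and 583 CPM in control and 354, 416 and 491 CPM in knockdown. The groups were separate, but control library 1 stood far above the other controls. Its log2 fold change was -0.79 ± 0.28 (SE; 95% interval -1.41 to -0.18, not adjusted for the number of features), with an adjusted p of 0.161 in edgeR. MT-ND4, a further antiporter-like subunit, had 503, 328 and 319 CPM in control and 186, 261 and 171 CPM in knockdown. The groups were separate here too, with a log2 fold change of -0.90 ± 0.26 (SE; 95% interval -1.47 to -0.33) and an adjusted p of 0.0914 in edgeR. MT-ND3, a small subunit with a loop near the quinone site, had 882, 504 and 374 CPM in control and 179, 387 and 303 CPM in knockdown. In TMM-scaled CPM it was the one gene whose groups overlapped. As a share of library totals, MT-ND3 was higher in control library 3 (3306 of 7330168 counts) than in knockdown library 2 (4573 of 13284658), so this overlap depends on the scaling of MT-ND3. Its log2 fold change was -1.02 ± 0.35 (SE; 95% interval -1.78 to -0.26), with an adjusted p of 0.147 in edgeR. Differences in fold change between these 3 genes and the called genes were not tested.

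MT-CYB encodes cytochrome b, the subunit of complex III that holds both quinone-binding sites and is its sole mitochondrially encoded part. It had 1361, 1118 and 856 CPM in control and 333, 476 and 299 CPM in knockdown. The lowest control library was well above the highest knockdown library. MT-CYB fell by 1.59 ± 0.27 on the log2 scale (SE; adjusted p = 0.0109, edgeR). Its control mean was 3.01 times its knockdown mean.

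Complex IV, cytochrome c oxidase, reduces oxygen to water, and its 3 mitochondrially encoded subunits form the catalytic core. All 3 fell. MT-CO1, which holds the haem groups and the oxygen-reducing site, had 469, 431 and 419.7 CPM in control and 115, 233 and 127 CPM in knockdown. In TMM-scaled CPM the control libraries of MT-CO1 were the closest of any of the 10 genes, with a coefficient of variation of 5.88%. Its knockdown libraries varied by 41.3%. This closeness depends on the scaling, and the variation without TMM factors was not computed. MT-CO1 fell by 1.47 ± 0.28 on the log2 scale (SE; adjusted p = 0.0171, edgeR).

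MT-CO2, which takes electrons from cytochrome c through its copper centre, had 2028, 1108 and 1311 CPM in control and 269, 725 and 536 CPM in knockdown. Both groups were spread widely, without overlap. It fell by 1.54 ± 0.35 on the log2 scale (SE; adjusted p = 0.0391, edgeR). MT-CO3, a core subunit without metal centres, had 275, 157 and 160.4 CPM in control and 59.0, 93.4 and 67.3 CPM in knockdown. Control library 1 again stood above the others. MT-CO3 fell by 1.43 ± 0.29 on the log2 scale (SE; adjusted p = 0.0202, edgeR).

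MT-ATP6 encodes the subunit of ATP synthase that forms the proton path beside the rotating ring. It had 219, 134 and 113 CPM in control and 34.1, 104 and 57.5 CPM in knockdown. The groups did not overlap, but knockdown library 2 came close to control library 3. Its log2 fold change was -1.25 ± 0.38 (SE; 95% interval -2.08 to -0.43), with an adjusted p of 0.104 in edgeR. In the RefSeq gene table (assembly GRCh38.p14) MT-ATP6 shares 46 bases with ATP8, so counts in that stretch are uncertain.

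**Figure D2:**
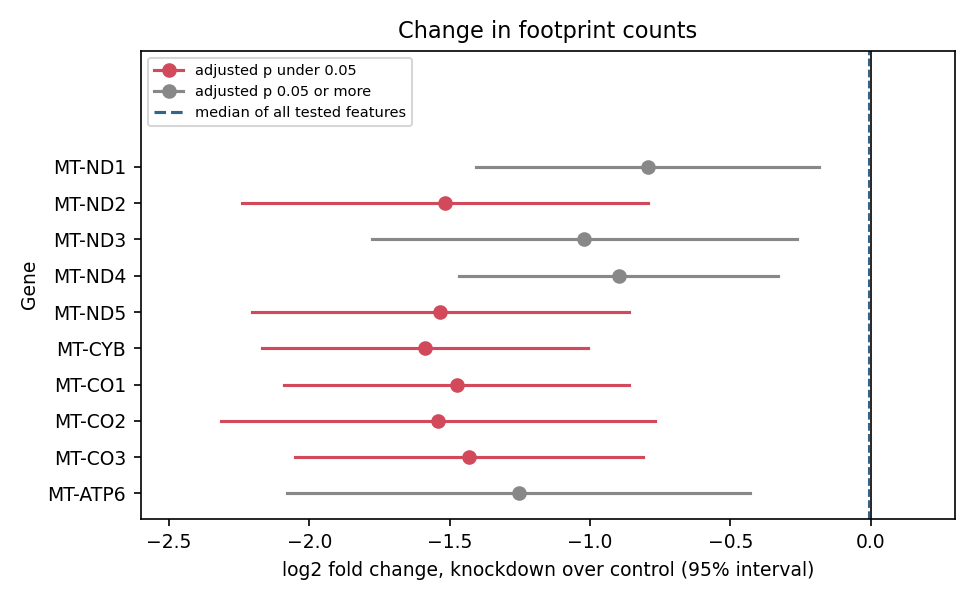
log2 fold change of knockdown over control for each gene (vertical axis), with 95% intervals from the edgeR fit that are not adjusted for the number of features. Red marks the 6 genes with an adjusted p under 0.05 and grey the other 4; all 10 lie between -1.59 and -0.79, left of the median of all features (dashed, -0.0047).

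In TMM-scaled CPM, the libraries of a group were ordered much alike across the genes. Control library 1 was the highest control in 10 of 10 genes, and control library 3 was the lowest in 7. Knockdown library 2 was the highest knockdown in 9 of 10 genes, the exception being MT-ND1, and knockdown library 1 was the lowest in 8. The mean deviation of the 10 genes from their group mean was 0.44 in control library 1 and 0.50 in knockdown library 2 on the log2 scale, against -0.42 in knockdown library 1. These orders are of TMM-scaled CPM. The TMM factors of libraries 1 to 3 were 0.923, 1.21 and 1.21 in control and 0.859, 0.890 and 0.974 in knockdown. Without these factors, control library 1 was not the highest control in every gene. MT-CO1 had 3466, 3520 and 3709 counts in control libraries 1 to 3, the fewest in library 1, which had the largest control total. For MT-CYB, control library 1 (10060 of 8008896 counts) had a smaller share than control library 2 (9137 of 6771455). The shared order thus depends in part on the scaling. Orders of the other genes without these factors were not computed. The 10 genes lie on one genome and share each library's scaling, so they are not 10 independent measurements of the knockdown.

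Leaving out 1 library kept the log2 fold change below 0 in all 10 genes in each of the 6 fits, but ended most calls. Without control libraries 1, 2 and 3 there were 1, 0 and 1 of the 10 genes called lower. The shares of all features called lower in those fits were 0.512%, 0.197% and 0.27%, so calls became scarce over the whole table. At an unadjusted p under 0.05 in edgeR, 8, 10 and 10 of the 10 genes were lower in those fits. The share of all features at that unadjusted level was not computed for those fits. With all 6 libraries it was 8.38%. Without knockdown libraries 1, 2 and 3 there were 1, 3 and 1 of the 10 genes called lower, against 0.712%, 0.41% and 0.715% of all features. MT-CYB was called in 5 of the 6 fits, and without control library 2 its adjusted p was 0.0627 in edgeR. MT-ND2 and MT-CO1 were called without knockdown library 2 only, and MT-ND5, MT-CO2 and MT-CO3 in none of the 6 fits. MT-ND1 and MT-ND3 depended most on control library 1: without it their log2 fold changes were -0.44 and -0.61. DESeq2 with all 6 libraries called 10 of 10 genes lower, against 5.23% of the features for which it gave an adjusted p.

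**Figure D3:**
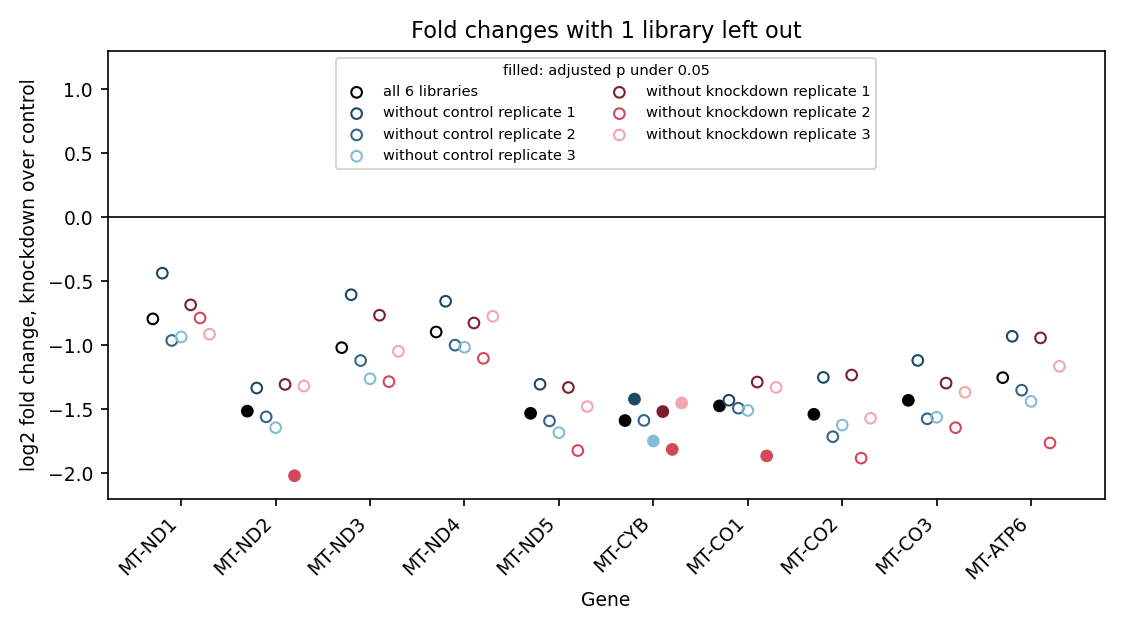
log2 fold change of knockdown over control for each gene with all 6 libraries (black) and with 1 library left out (blue for a control, red for a knockdown). Filled points have an adjusted p under 0.05 in edgeR; no point lies above 0, and MT-CYB alone has more filled than open points.

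Scaling changed the sizes but not the direction. When libraries were scaled by their totals only, the median of all features moved to -0.30 and that of the 10 genes to -1.72, and 7 of the 10 genes were called lower, MT-ND4 being added. In that fit 334 of the 11653 tested features were called lower and 63 higher, against 191 and 173 with TMM. When the 10 genes themselves were kept out of the library sizes and the TMM factors, the same 6 genes were called and the median of the 10 was -1.45. Removal of the 50 most abundant other features also left the same 6 genes called, with a median of -1.45. Over all features, the share called in either direction was 3.12% without the 10 genes in the scaling and 3.1% after that removal.

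Ratios among the 10 genes within a library do not depend on scaling, and in 3 of the genes they separated the groups. MT-ND1 made up 6.74%, 5.20% and 6.14% of the summed counts of the 10 genes in control and 11.1%, 7.02% and 11.6% in knockdown. MT-ND4 made up 3.22%, 3.09% and 3.36% in control and 5.83%, 4.40% and 4.04% in knockdown. Both genes took a larger part in every knockdown library than in any control library. MT-ND5 took a smaller part, with 55.3%, 57.8% and 55.1% in control and 50.8%, 53.1% and 50.7% in knockdown, again without overlap. In the other 7 genes the groups overlapped. These shares sum to a whole, so a larger part of one gene lowers the parts of others, and no test was run on them.

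Ratios to MT-CYB were also taken, although MT-CYB had the most negative log2 fold change of all the genes examined (-1.59, edgeR). This choice of reference favours higher ratios in knockdown, so a higher ratio means a smaller fall than that of MT-CYB, not a rise. Set against MT-CYB counts of the same library, MT-ND4 was higher in knockdown. Its log2 ratio to MT-CYB was -1.44, -1.77 and -1.43 in control and -0.84, -0.87 and -0.80 in knockdown. The ratio of MT-ND1 to MT-CYB was -0.37, -1.02 and -0.56 in control and 0.09, -0.20 and 0.71 in knockdown on the log2 scale. Neither pair of groups overlapped. The ratios of MT-ND2, MT-ND5, MT-CO1 and MT-CO2 to MT-CYB moved by at most 0.05 between group means on the log2 scale, and their groups overlapped. MT-ND3, MT-ATP6 and MT-CO3 lay between, with group means of their log2 ratio to MT-CYB higher in knockdown by 0.60, 0.25 and 0.19, and here too the groups overlapped. Among complexes, complex I took 71.4% ± 1.4 of the summed counts in control against 73.8% ± 1.2 in knockdown (SD, n = 3 each), with no overlap. The highest control library (72.22%) was barely below the lowest knockdown library (72.46%). The log2 ratios of summed counts of complexes III, IV and V to complex I moved by -0.21, -0.19 and 0.04 between group means, knockdown minus control. In all of these ratios the groups overlapped. MT-ND5 took a smaller part in knockdown, so leaving it out widens the complex I difference. Without MT-ND5, the other complex I genes took 34.9% ± 2.5 of the remainder in control and 45.9% ± 3.9 in knockdown. Complex IV took 17.9% ± 2.0 of the summed counts in control against 16.3% ± 2.1 in knockdown (SD, n = 3 each), with overlapping groups. Of the remainder without MT-ND5 it took 40.7% ± 3.3 and 33.7% ± 4.9 (SD, n = 3 each), where the lowest control library (37.87%) was barely above the highest knockdown library (37.81%).

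**Figure D4:**
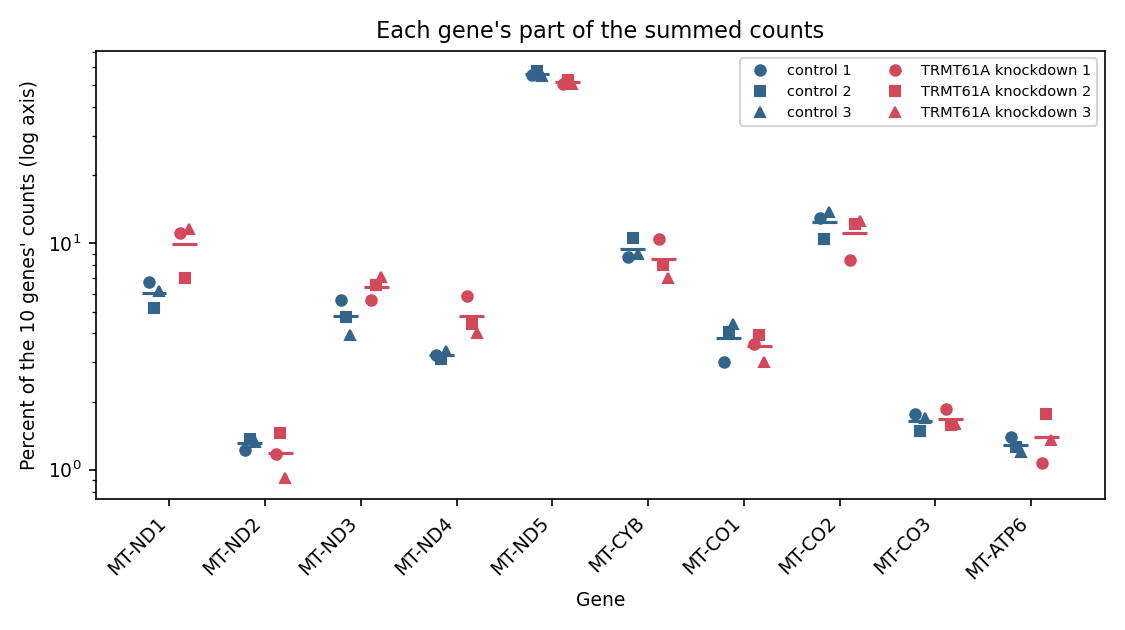
Part of the summed counts of the 10 genes that each gene took, in percent on a log axis, with 1 point per library and bars at group means (n = 3 each). MT-ND1 and MT-ND4 are higher in every knockdown library and MT-ND5 is lower, while the groups of the other 7 genes overlap.

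Levels of different genes were compared per kilobase of gene length, taken from the RefSeq gene table, in which all 10 genes were found by synonym. Mitochondrial genes have no introns, so this length is close to that of the coding sequence. MT-ND5, at 1812 bases, had the highest footprint density, 3679 ± 977 CPM per kilobase in control against 1272 ± 428 in knockdown (SD, n = 3 each). MT-ND2 had the lowest, 148 ± 32 and 51.8 ± 26.5 CPM per kilobase (SD, n = 3 each). The control mean of MT-ND5 was 24.8 times that of MT-ND2. These genes held the first and the last place in all 6 libraries.

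MT-CO2 and MT-ND3 followed MT-ND5, with control means of 2167 ± 706 and 1695 ± 762 CPM per kilobase (SD, n = 3 each). MT-CO2 was above MT-ND3 in 3 of 3 control libraries and in 0 of 3 knockdown libraries, so the order of this pair differed between the groups. That change of order was not tested. MT-CYB and MT-ND1 came next, with 974 ± 221 and 763 ± 294 CPM per kilobase in control (SD, n = 3 each). MT-CYB was likewise above MT-ND1 in 3 of 3 control libraries and in 0 of 3 knockdown libraries. Below a gap of 2.67-fold, in which MT-ND1 was above MT-CO1 in 6 of 6 libraries, stood MT-CO1, MT-ND4, MT-CO3 and MT-ATP6. Their control means were 285, 278, 252 and 228 CPM per kilobase, and the control libraries of each overlapped those of the next. In knockdown MT-CO1 had 103 ± 42 and MT-ND4 149 ± 35 CPM per kilobase (SD, n = 3 each), so that MT-ND4 came before MT-CO1.

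**Figure D5:**
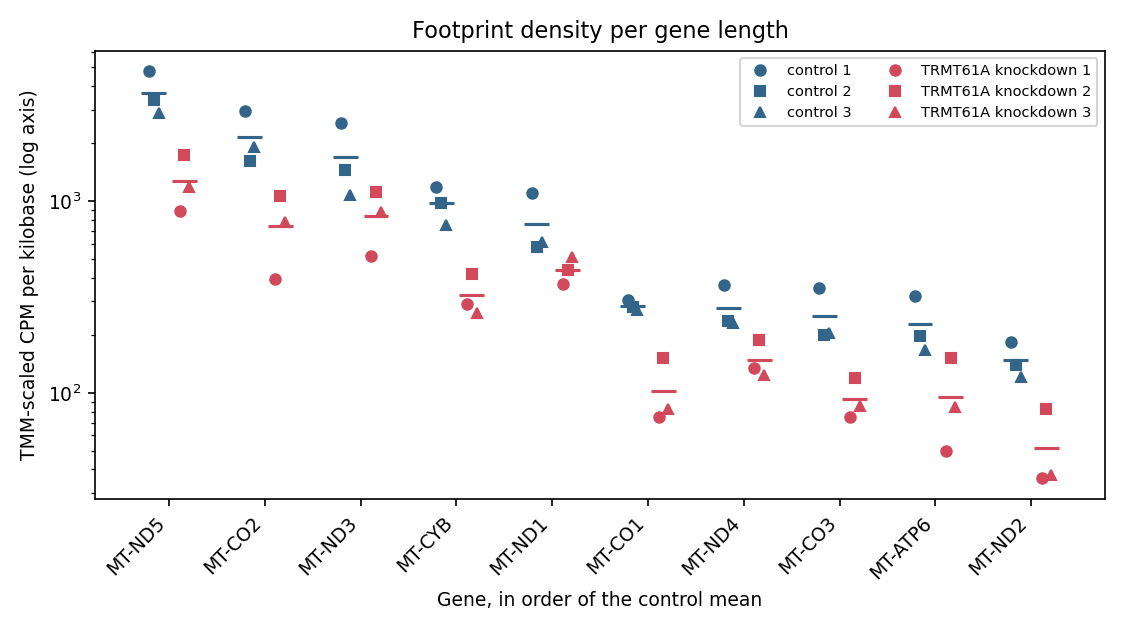
TMM-scaled CPM per kilobase of gene length on a log axis, with genes in order of their control mean, 1 point per library and bars at group means (n = 3 each). Densities run from MT-ND5 (3679 in control) to MT-ND2 (148), with a gap between MT-ND1 and MT-CO1 in the control libraries.

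Density per gene depends on how reads were assigned. The RefSeq table lists 403 nuclear pseudogenes named for the 10 genes, from 25 for MT-ND3 to 58 for MT-CO1. A short fragment can match both a mitochondrial gene and such a copy, and the treatment of reads with several matches is not given in the sources used here. MT-ND4 shares 7 bases with ND4L, and MT-CO3 shares 1 base with the end of MT-ATP6.

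The features outside the 10 genes whose levels followed their mean most closely were ENSG00000207105.1 and ENSG00000197019.5_5. Pearson's r of log2 CPM over the 6 libraries was 0.998 and 0.992. These r values were picked as the highest among all tested features outside the 10 genes, so they are no test of a link. They span both groups and share each library's scaling. The log2 fold changes of the 2 features were -1.38 and -1.50, and neither passed the test (adjusted p = 0.400 and 0.302 in edgeR).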

How the data were processed

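The authors deposited footprint counts for each Ensembl gene ID as whole numbers, and the values show no scaling. The submitters' processing notes name fastp, Bowtie 1.3.1 and hg38; which tool did the counting, from what annotation and with or without strand is not given in the sources used here. Control columns, named vec, were matched by assay and replicate number. The 6 columns named for RNA belong to no sample described here and were not used, so footprints were not divided by mRNA. Members and lists were chosen with earlier results of these data known. The gene names are those given with the member IDs.

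The test was that of edgeR 4.0.16 under R 4.3.3 (filterByExpr, TMM, glmQLFit and glmQLFTest, two-sided), with standard errors as fold change over the square root of F, and 95% intervals from the fit's degrees of freedom. The code was tested on simulated data. It called 5 of 182 features with a simulated 2-fold change and 99 of 176 with a 4-fold change. Among features as abundant as the 10 genes, these were 0 of 6 and 9 of 9. Alternatives used DESeq2 1.42.0, limma 3.58.1 with voom, other scaling and filters, a replicate block and each library left out. A count of 0 would allow 3 counts; none of the 10 genes was at 0. No molecular identifiers are described, so intervals on counts cover counting error only. All 10 members were named; the 2 features most like their mean log2(CPM + 0.5) were named too. The RefSeq gene table (59792 rows, GRCh38.p14) holds 0 Ensembl IDs, so lists of nuclear respiratory genes, mitochondrial expression factors and cell type markers were not analysed here. Protein lengths were not used, and densities rest on gene length. No coordinates or sequences are printed.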

Additional observations from a re-analysis of the deposited data

How the results depend on the processing

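The direction was the same for all 10 genes under all 17 alternatives. Of the 6 called genes, all 6 were called in 10 of the 11 alternatives that kept every library. The exception was the replicate block, with 3 calls (MT-ND2, MT-CYB and MT-CO1) and an adjusted p of 0.0538, 0.0883 and 0.0573 in edgeR for MT-ND5, MT-CO2 and MT-CO3. Deviations of same-numbered libraries from their group means correlated at -0.0039, -0.017 and 0.050 over all tested features. These values do not show whether same-numbered libraries were handled together, which was not tested. DESeq2 called 10 genes, no filter on low counts 9, at least 10 CPM in 3 libraries 8 and limma voom 8. The shares of all features called in either direction in these fits were 10.3%, 3.58%, 9.85% and 3.8%. The replicate block called 1.78% of all features, and the main fit called 3.12%. Leaving out 1 library gave 0 to 3 called genes, with fewer samples in each fit. The difference in summed share, knockdown minus control, was -0.884 percentage points and ran from -0.957 to -0.808 with 1 library left out. It was -2.27 with the 50 most abundant features out of the denominator, which makes the denominator smaller, and -0.746 over TMM effective library size. With these denominators the control mean was 2.60 and 2.68 times the knockdown mean, against 3.18 times over all counts. A second measure of length, from proteins, was not run. Counting error is small for these genes, whose lowest count in a library was 480.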
